A study of Rattus norvegicus with 12 samples.

Results

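Polyamine and diamine metabolism was followed through 10 genes in the rat uterus: Odc1, Amd1, Srm, Sms, Sat1, Arg1, Arg2, Azin1, Oaz1 and Aoc1. A gene was taken when its symbol equalled a name in the deposited gene tables, upper and lower case ignored. This found 9 of the 10 symbols among 26312 named genes, and all 9 had enough reads to be tested. No gene was named Srm, but the rows named Srm_1 and Srm_2 carry that symbol with a suffix and are given apart from the 9.

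Polyamines are small, positively charged molecules that bind nucleic acids and are needed for growth and protein synthesis. Arginase makes ornithine from arginine, ornithine decarboxylase (Odc1) turns ornithine into putrescine, and the synthases Srm and Sms add aminopropyl groups, made available by Amd1, to give spermidine and then spermine. Antizyme (Oaz1) binds ornithine decarboxylase and sends it to the proteasome, the antizyme inhibitor (Azin1) frees it, Sat1 starts the breakdown of spermidine and spermine, and Aoc1, diamine oxidase, degrades putrescine and histamine. In the rodent uterus ornithine decarboxylase is known as an enzyme induced by sex steroids and around implantation.

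All animals were ovariectomised females aged 10 weeks, with 2 weeks of rest after surgery. They came from Holtzman Sprague Dawley (HSD), an outbred stock, or from Brown Norway (BN), an inbred strain. Progesterone in a dose of 40 µg/g, or the sesame oil vehicle alone, was injected under the skin, and the uterus was collected after 9 h. Strain and treatment made 4 groups of 3 animals with 1 polyA RNA library each, and the ovaries had been removed in all of them, the oil groups included.

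Total gene reads per library, exon and intron reads together, ranged from 17435481 to 18880375 in oil-treated HSD, from 12224142 to 18859636 in progesterone-treated HSD, from 11763894 to 15535279 in oil-treated BN and from 15241366 to 19033254 in progesterone-treated BN. Levels are given below as CPM, counts scaled to a common depth after TMM scaling between libraries, and a gene is said to have risen or fallen where the edgeR quasi-likelihood test gave a Benjamini-Hochberg adjusted p under 0.05 over the 15697 tested genes. The uterine markers were present in every library: the summed level ranged from 7571 to 16491 CPM for 5 smooth muscle genes, from 4169 to 6548 CPM for 6 stromal genes and from 666 to 1115 CPM for 6 epithelial genes. The library HSD progesterone replicate 3 had the lowest smooth muscle sum of the 12, and results below that turn on it are given with and without it. Sequencing barcodes did not overlap between the 4 groups, which by itself does not show a batch. A batch that followed the groups could not be told apart from them.

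The promoters of the pathway's biosynthetic core and of antizyme are shown because Odc1, Amd1 and the Srm rows moved together under progesterone while Oaz1 did not pass the test. Each is the 250 bases before the annotated start, from RefSeq on the GRCr8 build, written along the gene's own strand: Odc1 at chr6:46058415-46058664 on the plus strand, Amd1 at chr20:45265983-45266232 on the minus strand, Srm at chr5:164308752-164309001 on the plus strand and Oaz1 at chr7:9536991-9537240 on the minus strand. Capitals mark matches, on either strand, to the E-box CACGTG, the TATA box TATAAA or the GC box GGGCGG.
Odc1: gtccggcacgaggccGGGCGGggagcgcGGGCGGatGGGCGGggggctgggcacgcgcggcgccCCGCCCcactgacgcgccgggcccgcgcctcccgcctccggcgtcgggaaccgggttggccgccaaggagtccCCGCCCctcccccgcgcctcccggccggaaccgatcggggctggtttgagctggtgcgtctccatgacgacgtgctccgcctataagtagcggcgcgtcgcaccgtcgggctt
Amd1: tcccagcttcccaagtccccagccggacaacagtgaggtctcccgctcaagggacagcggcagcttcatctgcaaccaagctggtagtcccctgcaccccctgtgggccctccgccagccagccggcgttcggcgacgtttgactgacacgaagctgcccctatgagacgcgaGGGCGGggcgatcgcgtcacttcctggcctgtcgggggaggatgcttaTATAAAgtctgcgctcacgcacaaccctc
Srm: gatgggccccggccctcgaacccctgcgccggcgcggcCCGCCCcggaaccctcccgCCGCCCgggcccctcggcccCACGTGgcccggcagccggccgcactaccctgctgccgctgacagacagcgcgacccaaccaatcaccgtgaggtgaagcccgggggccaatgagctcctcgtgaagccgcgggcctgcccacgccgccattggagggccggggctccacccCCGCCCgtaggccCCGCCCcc
Oaz1: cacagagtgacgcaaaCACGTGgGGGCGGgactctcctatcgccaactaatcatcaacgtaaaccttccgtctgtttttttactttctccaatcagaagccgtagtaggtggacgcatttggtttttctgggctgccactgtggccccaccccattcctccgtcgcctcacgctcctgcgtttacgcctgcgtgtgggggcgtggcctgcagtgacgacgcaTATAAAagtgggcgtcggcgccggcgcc

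The GC box was found in 30.5% of 33469 rat promoters of this length and was present 5 times in Odc1, 4 times in Srm and once each in Amd1 and Oaz1. Among the members whose sequence is not printed, Sms had it 3 times, Sat1 2 times and Aoc1 0 times. The E-box, which Myc-type and related factors bind, was in 5.59% of promoters and lay 173 bases before the start in Srm and 234 bases before it in Oaz1. The TATA box, held by 12.9% of promoters, lay 29 bases before the start in Amd1 and 28 bases before it in Oaz1. In Aoc1 a match lay 144 bases before the start. The hexamer AGAACA, a sequence that progesterone and glucocorticoid receptors bind, was in 17.5% of promoters and in none of the 7 members with a sequence (Odc1, Amd1, Srm, Sms, Sat1, Oaz1 and Aoc1). These matches describe letters in a short window, and binding was not measured. Guanine and cytosine made up 78% of the Odc1 window, 64% of the Amd1 window, 78.4% of the Srm window and 58% of the Oaz1 window, against a median of 51.2% over all promoters. The share was 72.8% for Sms, 52.8% for Sat1 and 43.2% for Aoc1.

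Progesterone raised the genes for putrescine and spermidine synthesis in both strains and left Oaz1 without a called change. Sat1 was lower with calls close to the threshold. Of the 9 genes, 3 rose and 2 fell in HSD, where 39.1% of all tested genes were called, 20.3% higher and 18.7% lower. In BN 3 rose and 1 fell, where 25.8% of all tested genes were called, 14% higher and 11.8% lower. The counts of the 9 were not tested against these shares, and nothing is read from them. The genes that rose were Odc1, Amd1 and Azin1 in each strain. Sat1 fell in each strain and Sms fell in HSD. The median log2 change of the 9 was 0.23 in HSD and 0.39 in BN, beside -0.02 and -0.01 over all tested genes. Each median of the 9 is the value of 1 gene, Oaz1 in HSD and Aoc1 in BN. Neither of these changes was called, so no shift of the 9 genes is read from the medians. The strains' own changes were compared by their difference, which was called for 0 of the 9 genes and for 0.051% of all tested genes, 0.0255% in each direction.

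Odc1, ornithine decarboxylase (Rnor_5.0, chromosome 6, 52565188 to 52571771, plus strand, 12 exons), is the first committed enzyme of the pathway. Its level was 57.8, 52.6 and 46.3 CPM in oil-treated HSD and 216, 187 and 199 CPM in progesterone-treated HSD. It was 41.9, 57.5 and 57.1 CPM in oil-treated BN and 139, 139.5 and 138 CPM in progesterone-treated BN. In both strains every progesterone library lay above every oil library, and the 3 BN progesterone libraries lay below the 3 HSD progesterone libraries. Odc1 rose 3.84-fold in HSD, a log2 change of 1.94 ± 0.13 (SE, adjusted p = 4.93e-07, edgeR), and 2.66-fold in BN, a log2 change of 1.41 ± 0.13 (adjusted p = 1.22e-05, edgeR). By the size of its change it ranked 408 of 15697 tested genes in HSD and 564 in BN. Under oil the strains had the same mean to within their spread, 52.3 ± 5.73 and 52.2 ± 8.91 CPM (SD, n = 3). Under progesterone Odc1 was lower in BN, at 138.9 ± 0.700 CPM against 200.6 ± 14.3 CPM (SD, n = 3), a log2 difference of -0.53 ± 0.12 (SE, adjusted p = 0.0264, edgeR). Between the strains under progesterone 5.73% of all tested genes were called, 2.43% higher and 3.31% lower. Of the 9 genes 2 were called there, Odc1 and Aoc1, and since Aoc1 was listed for its strain difference nothing is read from that count. The call was lost with library size alone as scaling (adjusted p = 0.0554, edgeR), in both fits to RPKM and on leaving out HSD progesterone replicate 1 or any of the 3 BN progesterone libraries (adjusted p from 0.0558 to 0.0870, edgeR). The strain difference of the progesterone change itself was -0.53 ± 0.18 on the log2 scale and did not pass (adjusted p = 0.493, edgeR).

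**Figure D1:**
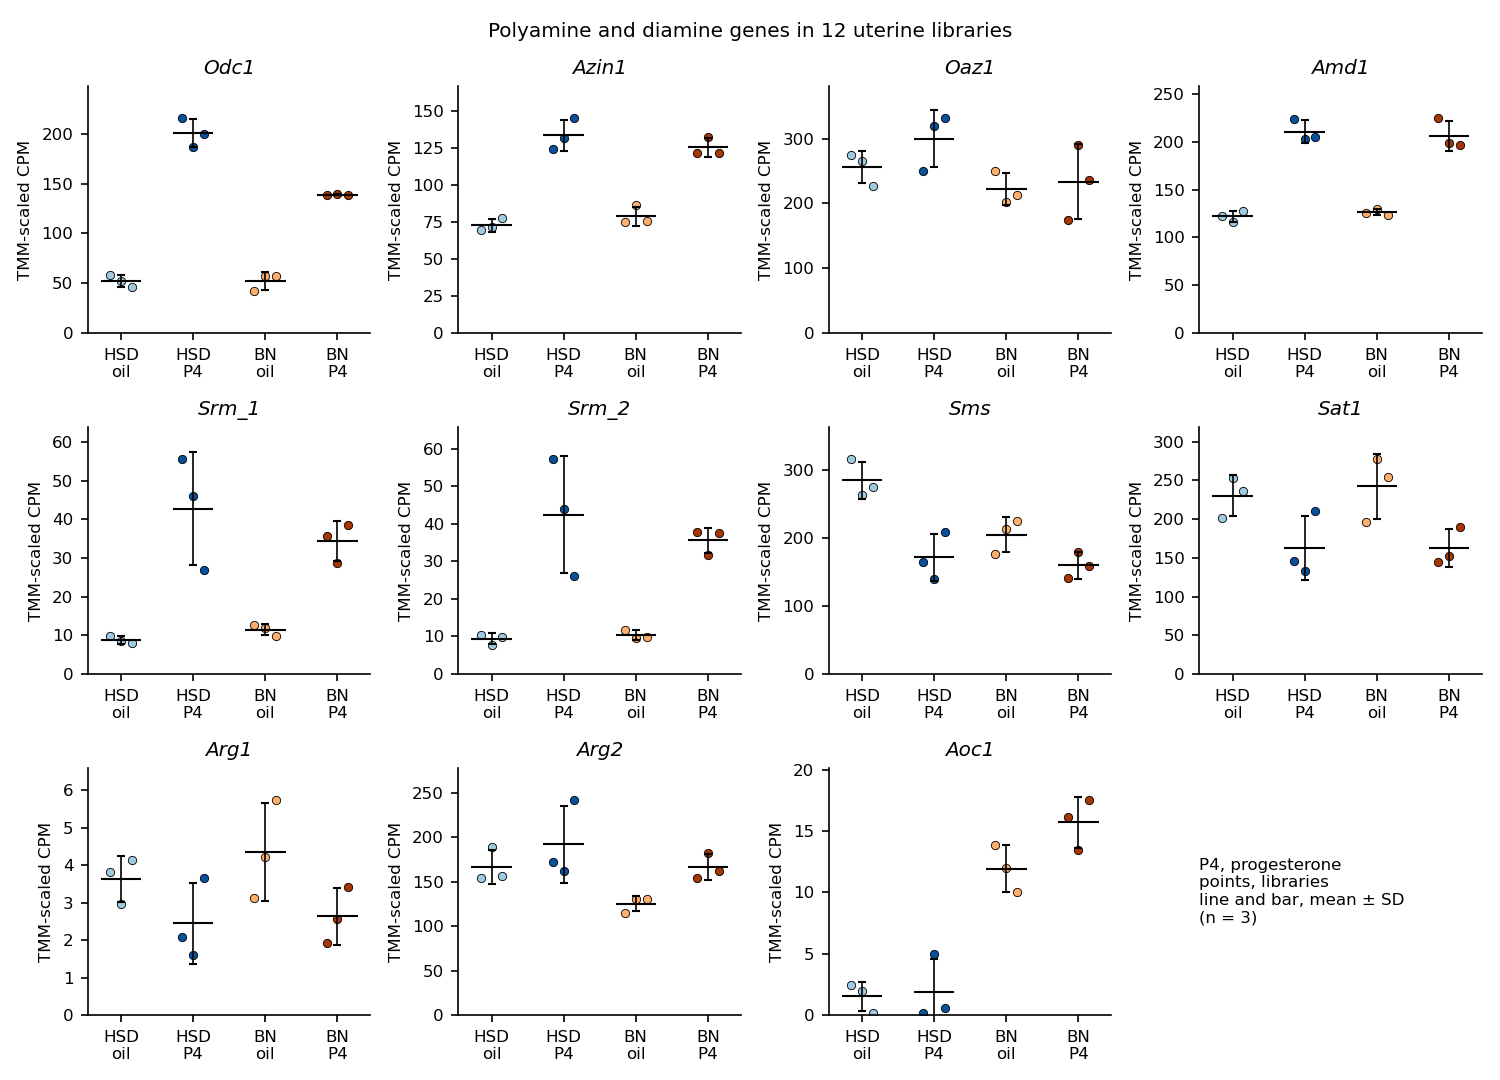
Level of each gene in the 12 libraries, in TMM-scaled CPM from 0 upward, by group; points are libraries, the line is the group mean and the bar its SD (n = 3). Odc1 rises from 46.3 to 57.8 CPM under oil in HSD to at least 187 CPM under progesterone, and Aoc1 is at 9.99 CPM or above in BN and at 4.95 CPM or below in HSD.

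Amd1, S-adenosylmethionine decarboxylase (chromosome 20, 47103762 to 47119440, minus strand, 8 exons), makes the aminopropyl donor of both synthases. Its level was 123, 116 and 128 CPM in oil-treated HSD and 224, 203 and 205 CPM in progesterone-treated HSD. BN libraries had 125, 130.0 and 124 CPM with oil and 225, 198.5 and 197 CPM with progesterone. The treatments did not overlap in either strain, and the strains overlapped under each treatment. Amd1 rose 1.72-fold in HSD (log2 0.79 ± 0.09, adjusted p = 3.24e-05, edgeR) and 1.64-fold in BN (log2 0.71 ± 0.09, adjusted p = 0.000144, edgeR). The strain difference of the change was -0.08 on the log2 scale, with an approximate 95% interval from -0.37 to 0.22 (adjusted p = 0.944, edgeR).

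The 2 rows that carry the Srm symbol lie on chromosome 3 (Srm_1, 19900147 to 19903299) and chromosome 5 (Srm_2, 169061723 to 169064921), each on the plus strand with 8 exons. Spermidine synthase converts putrescine to spermidine. None of the reads of either row, 0%, was placed uniquely, so the rows share reads and their split is uncertain. Srm_1 was at 9.91, 8.58 and 8.05 CPM in oil-treated HSD, 55.6, 46.0 and 26.9 CPM in progesterone-treated HSD, 12.6, 11.8 and 9.91 CPM in oil-treated BN and 35.7, 28.7 and 38.6 CPM in progesterone-treated BN. The treatments did not overlap in either strain, and HSD progesterone replicate 3 was the lowest library of its group for both rows. With the reads of both rows summed, the level rose 4.67-fold in HSD (log2 2.22 ± 0.22, adjusted p = 1.19e-05, edgeR) and 3.203-fold in BN (log2 1.68 ± 0.22, adjusted p = 0.000193, edgeR). The summed strain difference of the change was -0.54 ± 0.31 (SE, adjusted p = 0.765, edgeR). Without HSD progesterone replicate 3 the HSD change was 2.51 for Srm_1 (adjusted p = 2.78e-07, edgeR) and 2.43 for Srm_2 (adjusted p = 4.76e-07, edgeR).

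Azin1, the antizyme inhibitor (chromosome 7, 77448675 to 77475344, minus strand, 13 exons), resembles ornithine decarboxylase but is not active as an enzyme. Its level was 69.5, 71.7 and 77.7 CPM in oil-treated HSD and 124, 132 and 145 CPM in progesterone-treated HSD. The BN values were 75.0, 86.6 and 75.5 CPM with oil and 122, 133 and 121.9 CPM with progesterone. The treatments were apart in both strains. Azin1 rose 1.83-fold in HSD (log2 0.88 ± 0.10, adjusted p = 2.49e-05, edgeR) and 1.59-fold in BN (log2 0.67 ± 0.10, adjusted p = 0.000383, edgeR). The changes of Azin1, Amd1 and Odc1 against oil kept their call under each of the 23 alternatives tried in both strains.

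Oaz1, antizyme (chromosome 7, 11919843 to 11922302, minus strand, 6 exons), is itself made in response to polyamines through a frameshift during translation, which RNA counts do not show. Its level was 275, 265 and 227 CPM in oil-treated HSD and 249, 319 and 331 CPM in progesterone-treated HSD. In BN it was 250.5, 203 and 213 CPM with oil and 174, 290.0 and 236 CPM with progesterone. The groups overlapped in every comparison. The change was 0.23 on the log2 scale in HSD, with an approximate 95% interval from -0.17 to 0.63 (adjusted p = 0.315, edgeR), and 0.07 in BN, from -0.33 to 0.47 (adjusted p = 0.802, edgeR).

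**Figure D2:**
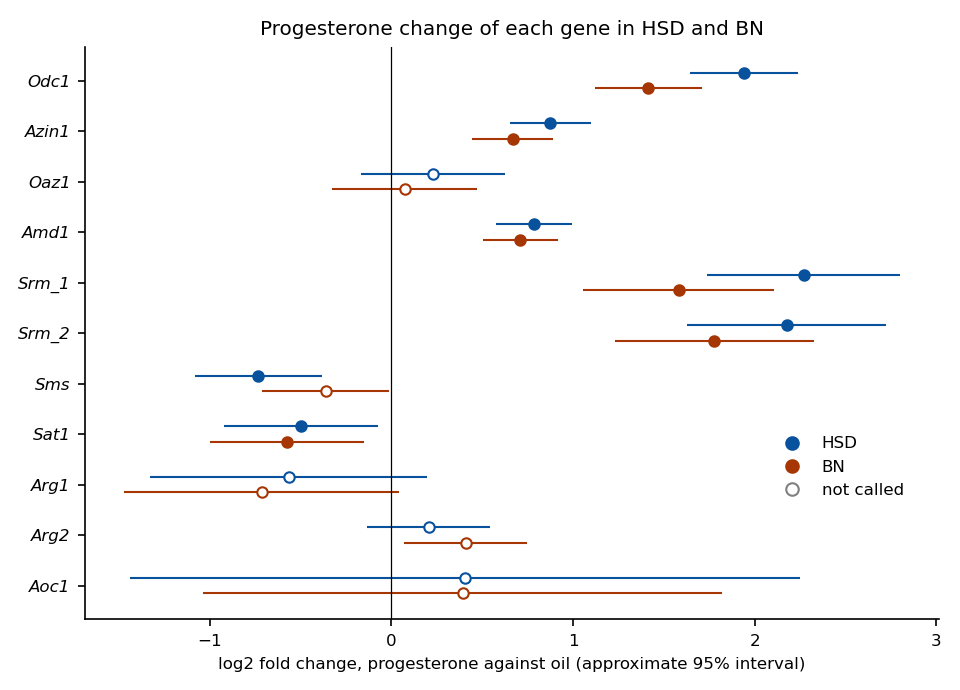
Log2 change under progesterone against oil for each gene in HSD and BN with its approximate 95% interval; filled points passed the adjusted p of 0.05. Odc1 stands at 1.94 in HSD and 1.41 in BN, Oaz1 at 0.23 and 0.07, and the intervals of Aoc1 are the widest shown.

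Sms, spermine synthase (chromosome X, 40674244 to 40725965, plus strand, 11 exons), moved opposite to Odc1 in HSD. Its level was 316, 263 and 275 CPM in oil-treated HSD and 165, 141 and 209 CPM in progesterone-treated HSD. BN libraries had 177, 213 and 226 CPM with oil and 141, 179 and 159 CPM with progesterone. The treatments were apart in HSD and overlapped in BN. Sms was 1.66-fold lower under progesterone in HSD (log2 -0.73 ± 0.15, adjusted p = 0.00238, edgeR). In BN the change was -0.36 ± 0.15 (adjusted p = 0.101, edgeR). The BN change passed in the fit of the 2 BN groups alone (adjusted p = 0.0274, edgeR), with limma voom (-0.47, adjusted p = 0.00147) and without HSD progesterone replicate 3 (adjusted p = 0.0387, edgeR). The strain difference of the change was 0.37 and did not pass (adjusted p = 0.775, edgeR). Between 81.2% and 86.4% of Sms reads were placed uniquely, and with unique reads alone the HSD change was -0.76 (adjusted p = 0.00145, edgeR).

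The share of Sms reads that fell in introns differed between the treatments. It was 27.8%, 27.9% and 28.9% in oil-treated HSD and 9.63%, 11.2% and 12.4% in progesterone-treated HSD. In BN it was 25.1%, 25.8% and 27.5% with oil and 15.9%, 13.9% and 15.2% with progesterone. Every progesterone library lay below every oil library. Intron reads of Sms were at 80.4 ± 7.31 CPM under oil and 19.2 ± 5.84 CPM under progesterone in HSD, and at 53.8 ± 8.95 and 23.8 ± 1.35 CPM in BN (SD, n = 3). Exon reads were at 204.5 ± 20.6 CPM and 152 ± 29.3 CPM in HSD, and at 151 ± 16.5 and 136 ± 18.0 CPM in BN, in the same order (SD, n = 3). With exon reads alone the change of Sms was -0.44 in HSD (adjusted p = 0.0460, edgeR) and -0.17 in BN (adjusted p = 0.5004, edgeR), so the HSD change with intron reads counted was over 1.5 times as large. Over all genes the intron share ranged from 21.6% to 25.7% in oil-treated HSD, from 19.96% to 23.0% in progesterone-treated HSD, from 22.4% to 24.3% in oil-treated BN and from 22.5% to 24.1% in progesterone-treated BN. In HSD the intron share of Sat1, Amd1 and Odc1 was also lower in every progesterone library than in every oil library. For Sat1 it was 35.4% to 36.6% against 40.2% to 45.5% with oil, and for Amd1 13.2% to 14.0% against 16.5% to 20.1%. For Odc1 it was 3.10% to 3.31% against 4.46% to 5.30%. For Arg1, Arg2, Azin1, Oaz1 and Aoc1 the treatments overlapped in HSD, and of these only Arg2 had a higher mean share under progesterone. In BN the treatments overlapped for each of the 9 genes except Sms. How many of all tested genes separated by intron share in HSD was not counted, so nothing is read from the number of the 9 that did. No other listed gene overlaps Sms in the files' coordinates, and the intron share as such was described, not tested.

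**Figure D3:**
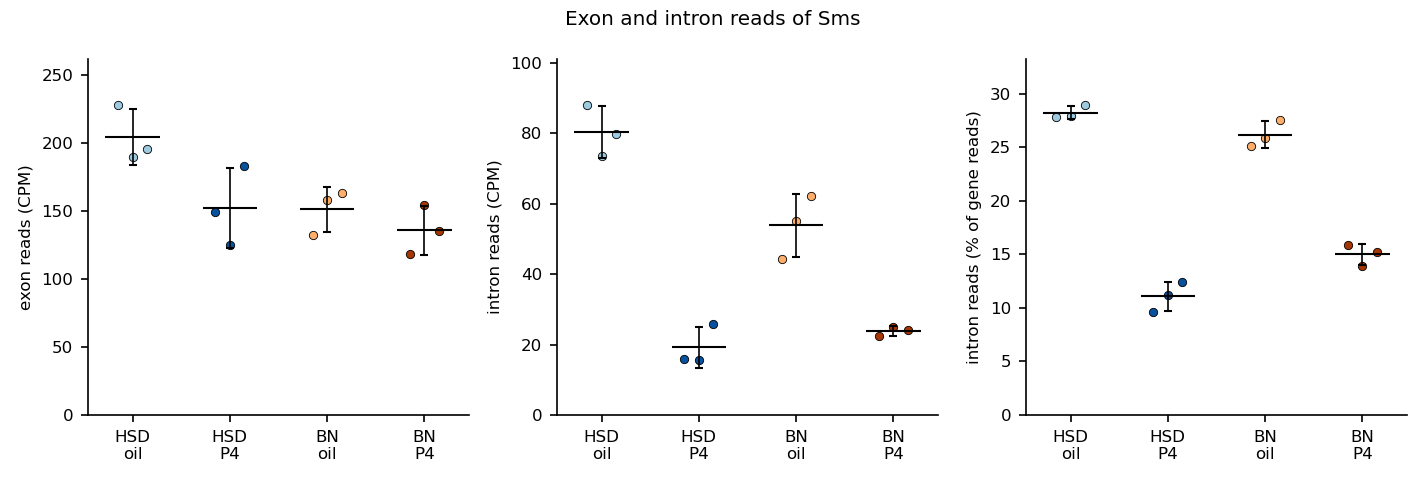
Exon reads (CPM), intron reads (CPM) and the intron share of gene reads (%) of Sms in the 12 libraries; points are libraries, line and bar are mean and SD (n = 3). The intron share is between 25.1% and 28.9% in the oil libraries and between 9.63% and 15.9% in the progesterone libraries.

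Sat1, spermidine and spermine acetyltransferase (chromosome X, 43930760 to 43934045, plus strand, 6 exons), is the rate-limiting enzyme of polyamine breakdown. Its level was 201, 253 and 236 CPM in oil-treated HSD and 146, 133 and 210.3 CPM in progesterone-treated HSD. The BN values were 196, 277 and 254 CPM with oil and 145, 153 and 190.1 CPM with progesterone. The treatments were apart in BN and overlapped in HSD, where progesterone replicate 3 lay within the oil range. Sat1 fell 1.41-fold in HSD (log2 -0.50 ± 0.18, adjusted p = 0.0469, edgeR) and 1.49-fold in BN (log2 -0.57 ± 0.18, adjusted p = 0.0357, edgeR). Both calls were close to the threshold. With exon reads alone neither passed: the change was -0.36 in HSD (adjusted p = 0.173, edgeR) and -0.52 in BN (adjusted p = 0.0785, edgeR). The HSD call held without HSD progesterone replicate 3, at -0.73 (adjusted p = 0.00336, edgeR), and without BN oil replicate 1, and was lost on leaving out any of the other 10 libraries (adjusted p from 0.0535 to 0.155, edgeR). The BN call was lost without BN oil replicate 2 or 3 or BN progesterone replicate 1 or 2 (adjusted p from 0.0994 to 0.121, edgeR). Of all 23 alternatives, 14 lost the HSD call and 7 lost the BN call, and the change stayed negative in each. Between 35.4% and 45.5% of Sat1 reads fell in introns. In these bulk libraries fewer cells of a type and less RNA per cell cannot be told apart.

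The arginases lay at very different levels and neither passed the test against oil. Arg1 (chromosome 1, 23005317 to 23017705, plus strand, 8 exons), the cytosolic enzyme best known from liver and some macrophages, had 24 to 74 reads per library. It was at 3.82, 2.95 and 4.14 CPM in oil-treated HSD, 2.09, 1.59 and 3.65 CPM in progesterone-treated HSD, 3.13, 4.22 and 5.73 CPM in oil-treated BN and 1.91, 2.56 and 3.43 CPM in progesterone-treated BN. The treatments overlapped in both strains. The change was -0.56 ± 0.33 in HSD (adjusted p = 0.199, edgeR) and -0.71 ± 0.33 in BN (adjusted p = 0.131, edgeR). Without HSD progesterone replicate 3 the HSD change was -1.004 and passed (adjusted p = 0.0319, edgeR), and with limma voom the BN change was -0.84 and passed (adjusted p = 0.0128).

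Arg2 (chromosome 6, 114998810 to 115025299, plus strand, 8 exons) encodes the mitochondrial arginase. It was at 154, 189 and 156 CPM in oil-treated HSD, 172, 162 and 242 CPM in progesterone-treated HSD, 115, 130.0 and 130.4 CPM in oil-treated BN and 154, 183 and 162 CPM in progesterone-treated BN. The treatments overlapped in HSD and were apart in BN. The change was 0.21 ± 0.15 in HSD (adjusted p = 0.293, edgeR), and it was 0.00 without HSD progesterone replicate 3 (adjusted p = 0.997, edgeR). In BN it was 0.41 ± 0.15 (adjusted p = 0.0585, edgeR) and passed in 5 of 23 alternatives: DESeq2 (adjusted p = 0.0448), limma voom (0.00491), the 2 BN groups alone (0.00592, edgeR), and without HSD progesterone replicate 2 (0.0457, edgeR) or replicate 3 (0.00733, edgeR). Under oil Arg2 was at 125 ± 8.64 CPM in BN and 166 ± 19.5 CPM in HSD (SD, n = 3), a difference of -0.41 that did not pass (adjusted p = 0.144, edgeR). It passed with limma voom (adjusted p = 0.0337), in the 2 oil groups alone (0.0462, edgeR) and without HSD progesterone replicate 3 (0.0208, edgeR). Sms under oil showed the same order, with 205 ± 25.3 CPM in BN and 285 ± 27.7 CPM in HSD (SD, n = 3) and a log2 difference of -0.47 (adjusted p = 0.0985, edgeR), which passed with DESeq2 (0.0471), limma voom (0.0327), the 2 oil groups alone (0.0438, edgeR) and without HSD progesterone replicate 3 (0.0278, edgeR).

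Aoc1, diamine oxidase (chromosome 4, 143183686 to 143203220, plus strand, 5 exons), was listed because its level was known to differ by strain, so its strain values are a description and carry no test. It had 47, 37 and 3 reads in oil-treated HSD, 2, 90 and 10 reads in progesterone-treated HSD, 216, 170 and 122 reads in oil-treated BN and 278, 205 and 332 reads in progesterone-treated BN. Its level was 2.42, 1.99 and 0.168 CPM in oil-treated HSD and 0.174, 4.95 and 0.589 CPM in progesterone-treated HSD. In BN it was 13.8, 11.95 and 9.99 CPM with oil and 16.1, 13.4 and 17.5 CPM with progesterone. The 6 BN libraries all lay above the 6 HSD libraries, the highest HSD value being 4.95 CPM and the lowest BN value 9.99 CPM. Counting error alone gives exact Poisson 95% intervals from 3.98 to 6.08 CPM for that HSD library and from 8.30 to 11.9 CPM for that BN library. The HSD libraries differed far more among themselves: the interval was 0.0346 to 0.490 CPM for HSD oil replicate 3 and 1.78 to 3.22 CPM for HSD oil replicate 1, so the spread within HSD exceeded counting error. The mean in BN was 7.81 times that in HSD under oil and 8.24 times under progesterone, and all Aoc1 reads (100%) were placed uniquely. The fitted log2 difference under progesterone was 2.94 with all libraries and 5.19 without HSD progesterone replicate 2. Aoc1 is the 1 gene of the 9 called between the strains under oil, where 5.69% of all tested genes were called, 2.34% higher and 3.34% lower, and by construction of the list nothing is read from that.

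Progesterone gave no called change of Aoc1. In HSD the change was 0.41 on the log2 scale with an approximate 95% interval from -1.44 to 2.25 (adjusted p = 0.721, edgeR), and it was -1.86 without HSD progesterone replicate 2, the library with 90 reads (adjusted p = 0.0902, edgeR). In BN it was 0.39, from -1.03 to 1.82 (adjusted p = 0.690, edgeR). Markers of other cells also differed between the strains. The summed level of 5 eosinophil markers was 2.47 to 6.43 CPM in HSD and 9.38 to 12.2 CPM in BN, with 3 of the 5 at 0 in some library. Of these markers 2 could be tested, and Siglec5 was higher in BN under oil (log2 2.08, adjusted p = 0.00301, edgeR) and under progesterone (log2 1.67, adjusted p = 0.0125, edgeR). The sum of 6 mast cell markers was 13.0 to 24.2 CPM in HSD and 22.2 to 34.7 CPM in BN, with 1 of the 6 at 0 in some library. Of 5 mast cell markers tested, 1 was higher in BN under oil, the protease Cpa3. Under progesterone 2 were higher in BN, Cpa3 among them, and 0 were called lower. The sum of 6 epithelial markers was 782 to 1115 CPM in HSD and 666 to 829 CPM in BN. Within each treatment it was lower in BN, at 707 to 731 CPM against 782 to 1115 CPM under oil. Under progesterone it was 666 to 829 CPM against 858 to 918 CPM. Of the 6 epithelial markers 2 were called lower in BN under oil and 1 under progesterone. The sum of 4 red blood cell markers was 207 to 462 CPM in HSD and 63.2 to 236 CPM in BN. Of 3 red blood cell markers tested, 1 was called lower in BN under oil and 2 under progesterone. Other sums were higher in BN under oil and overlapped between the strains under progesterone. Under oil the endothelial sum was 298 to 400 CPM in HSD and 432 to 506 CPM in BN. The stromal sum was 4971 to 5419 and 5640 to 6162 CPM, and the smooth muscle sum 8883 to 13108 and 13113 to 16491 CPM. In the macrophage list 1 of 6 markers was called higher in BN under oil, and in the endothelial list 1 of 5 under progesterone. The part of these cells in the Aoc1 level was not tested.

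The same marker lists were read beside the progesterone changes. In HSD the mast cell sum was 18.8 to 24.2 CPM under oil and 13.0 to 16.1 CPM under progesterone, the red blood cell sum 207 to 293 and 424 to 462 CPM, and the smooth muscle sum 8883 to 13108 and 7571 to 16025 CPM. In BN the mast cell sum was 27.9 to 34.7 CPM under oil and 22.2 to 23.2 CPM under progesterone, the red blood cell sum 65.1 to 100.1 and 63.2 to 236 CPM, and the smooth muscle sum 13113 to 16491 and 10843 to 14173 CPM. The macrophage sum, of interest beside Arg1, was 149 to 173 and 155 to 189 CPM in HSD and 176 to 197 and 160 to 203 CPM in BN, and overlapped between treatments. Single markers were called within these lists: Cd163, a macrophage scavenger receptor, was higher under progesterone in HSD (log2 1.48, adjusted p = 0.000179, edgeR) and at 0.43 in BN without a call. The mast cell receptor Kit was lower in both strains (log2 -0.9994 in HSD and -0.87 in BN), as were the epithelial Krt18 (-0.44 in each) and the stromal Vim (-0.43 and -0.51). Vwf of endothelium was lower in HSD (-1.27), and Pdgfra of stroma and Tpsab1 of mast cells were higher in BN (0.42 and 1.76). The part of cell composition in the changes of the polyamine genes was not tested.

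Levels of different genes were compared per length, in the deposited RPKM. In oil-treated HSD the order was Oaz1 (225), Sms (130.2), Sat1 (116), Arg2 (107), Amd1 (32.6), Odc1 (20.5), Azin1 (16.9), Arg1 (2.10) and Aoc1 (0.510 RPKM). There Sms and Sat1, and Sat1 and Arg2, overlapped between libraries, and the other neighbours were apart. In progesterone-treated HSD Odc1 stood at 73.8 RPKM, beside Sat1 at 84.4, Sms at 89.1 and Amd1 at 54.6 RPKM. In BN Odc1 was at 20.6 RPKM with oil, overlapping Azin1 at 18.3, and at 53.3 RPKM with progesterone, overlapping Amd1 at 53.6 RPKM. Aoc1 had the lowest mean in HSD, where it overlapped Arg1 under progesterone (0.629 against 1.35 RPKM) and lay apart from it under oil, and it stood above Arg1 in BN, at 4.08 against 2.57 RPKM with oil and 5.32 against 1.46 RPKM with progesterone.

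Ratios of RPKM within a library set the decarboxylase against its inhibitor and against the catabolic enzyme. The ratio of Odc1 to Oaz1 was 0.0913 ± 0.00228 in oil-treated HSD, 0.307 ± 0.0728 in progesterone-treated HSD, 0.110 ± 0.0290 in oil-treated BN and 0.281 ± 0.0819 in progesterone-treated BN (SD, n = 3). The ratio of Azin1 to Oaz1 was 0.0760 ± 0.0126, 0.117 ± 0.0122, 0.0969 ± 0.0170 and 0.148 ± 0.0385 in the same order. The ratio of Odc1 to Sat1 was 0.178 ± 0.0301, 0.906 ± 0.204, 0.170 ± 0.0117 and 0.644 ± 0.0741. For all 3 ratios the treatments did not overlap in either strain, and the ratios carry no test. With unique gene reads, introns included, in place of exon reads the Odc1 to Sat1 ratio was lower in every group: its mean log2 was -3.23 instead of -2.50 in oil-treated HSD, -0.77 instead of -0.17 in progesterone-treated HSD, -3.31 instead of -2.56 in oil-treated BN and -1.31 instead of -0.64 in progesterone-treated BN.

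**Figure D4:**
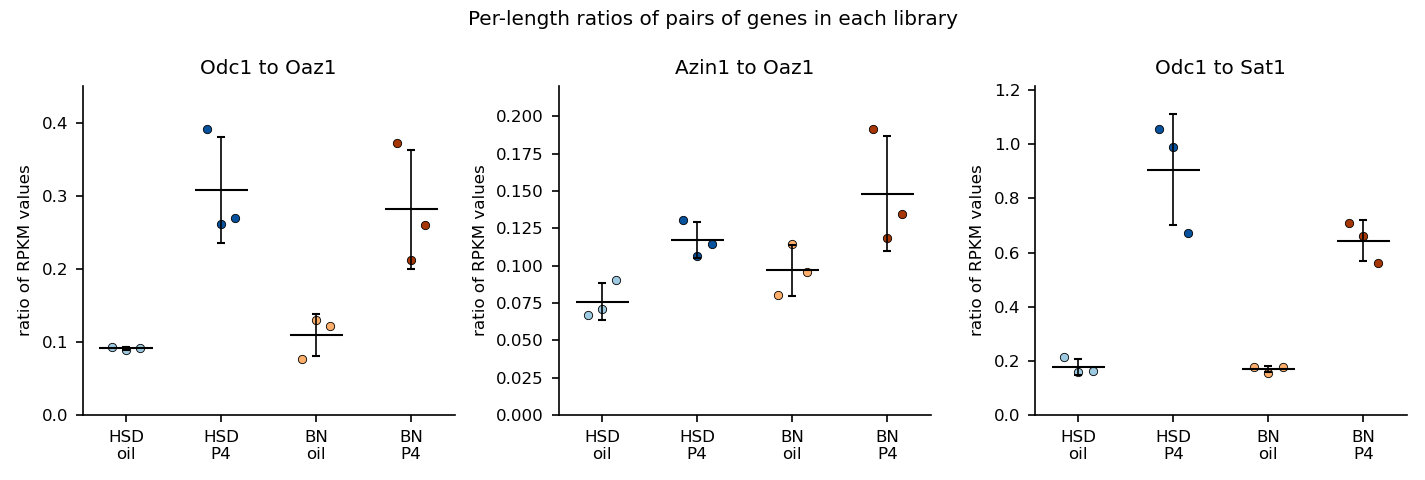
Ratio of RPKM values within each library for Odc1 to Oaz1, Azin1 to Oaz1 and Odc1 to Sat1; points are libraries, line and bar are mean and SD (n = 3). The mean ratio of Odc1 to Oaz1 goes from 0.0913 to 0.307 in HSD and from 0.110 to 0.281 in BN.

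Across the 12 libraries Odc1, Amd1, Azin1 and the Srm rows varied together, as a description over libraries that share treatment and strain. The synthase Sms went the other way, with r of -0.67 to Odc1, -0.78 to Amd1 and -0.85 to Srm_1. All r values here count exon and intron reads together. With exon reads alone the fall of Sms under progesterone was smaller in both strains, as given above, and r was not computed. Pearson's r of log2(CPM + 0.5) was 0.96 between Odc1 and Amd1, 0.95 between Odc1 and Azin1 and 0.94 between Odc1 and Srm_1, against 0.34 between Odc1 and Oaz1 and -0.74 between Odc1 and Sat1. Of 12095 genes with a mean of at least 5 CPM, those most like Odc1 were Ppa1, Rnmtl1, Eif4a1, Clptm1l and Rrp8, with r from 0.988 to 0.990. Those most like Sat1 were Dennd6a, Tmem19, Srsf5, Syf2 and Abcg5 (r from 0.935 to 0.954), and among those most like Arg1 were Arrdc3, Trem2, Sat1 and Tigd2 (r from 0.868 to 0.897). For Aoc1 they were Endod1, ATL3, Zfp956, Ngb and RGD1311267 (r from 0.919 to 0.953).

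A wider list of polyamine transport, polyamine oxidation, methionine salvage, arginine and amine oxidase genes was read beside the 9. Of 46 symbols 43 were found and 40 tested. In HSD 12 of the 40 rose and 7 fell, beside 20.3% and 18.7% of all tested genes, and in BN 8 rose and 4 fell, beside 14% and 11.8%. Between the strains 1 was higher in BN under oil, where 2.34% of all tested genes were, and 2 were lower in BN under progesterone, where 3.31% were. The counts that fell lay near the share over all genes in both strains. The counts that rose were not tested against that share, and the list was chosen with earlier results of these data known. The median log2 change of the 40 was 0.12 in HSD and 0.07 in BN. The strain difference of the change was called for 0 of the 40.

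Genes that supply and use the pathway's substrates were called in both directions. Mat2b, the regulatory partner of Mat2a, fell (log2 -0.31 in HSD and -0.34 in BN), as did Asl, which makes arginine (-0.45 and -0.39), all called (adjusted p from 0.0147 to 0.0409, edgeR); both genes were named after their values were seen. Mat2a, which makes S-adenosylmethionine, went from 159 ± 24.3 to 636 ± 244 CPM in HSD (log2 2.00 ± 0.21, adjusted p = 1.76e-05, edgeR) and from 159 ± 3.43 to 417 ± 6.99 CPM in BN (log2 1.39 ± 0.21, adjusted p = 0.000474, edgeR). HSD progesterone replicate 3 was the highest library for Mat2a, at 915 CPM, and without it the HSD change was 1.64 (adjusted p = 6.47e-07, edgeR). Eif5a, the translation factor that carries hypusine made from spermidine, went from 306 ± 9.12 to 594 ± 46.5 CPM in HSD (log2 0.96 ± 0.10) and from 305 ± 6.64 to 462 ± 35.1 CPM in BN (log2 0.60 ± 0.10), both called. It was lower in BN under progesterone by a log2 difference of -0.36 (adjusted p = 0.0492, edgeR), a call lost in 18 of 23 alternatives, among them leaving out any 1 library except HSD progesterone replicate 2. Atp13a3, a polyamine transporter, rose in HSD from 2.10 ± 0.460 to 10.7 ± 4.48 CPM, and in BN from 2.25 ± 0.324 to 9.78 ± 2.61 CPM, log2 changes of 2.35 ± 0.30 and 2.11 ± 0.31. Its reads were placed uniquely in 73.4% of cases. Gatm, which uses arginine to make a creatine precursor, rose in HSD by a log2 change of 0.82 ± 0.18 and in BN by 0.71 ± 0.18; the BN call was lost without BN oil replicate 1 (adjusted p = 0.0616, edgeR) or BN progesterone replicate 3 (adjusted p = 0.0505, edgeR). Slc7a1, a cationic amino acid transporter, rose in BN (log2 0.85 ± 0.27, adjusted p = 0.0331, edgeR) but not past the threshold in HSD (0.34, adjusted p = 0.331, edgeR), and the BN call was lost on leaving out any BN library (adjusted p from 0.0507 to 0.109, edgeR).

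**Figure D5:**
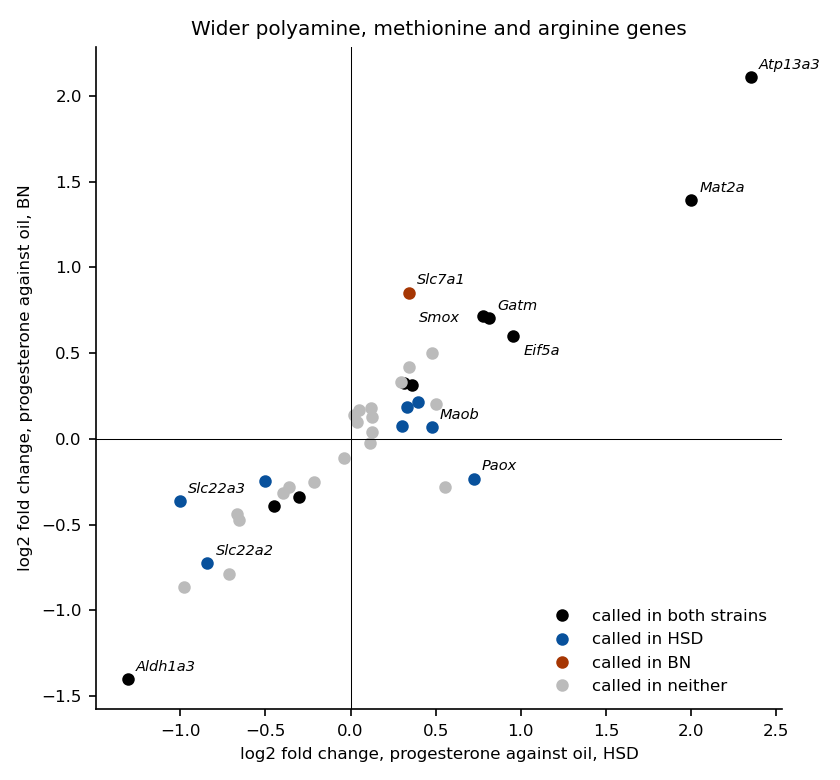
Log2 change under progesterone in HSD (horizontal) and in BN (vertical) for the tested genes of the wider list that are reported here; the color marks in which strain a change was called. Atp13a3 and Mat2a lie at the upper right and Aldh1a3 at the lower left; HSD and BN have separate oil controls.

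The oxidases and organic cation transporters moved in different directions. Smox, spermine oxidase, rose from 56.4 ± 3.86 to 96.7 ± 14.0 CPM in HSD (log2 0.78 ± 0.14, adjusted p = 0.000695, edgeR) and from 43.5 ± 5.90 to 71.5 ± 9.39 CPM in BN (log2 0.72 ± 0.14, adjusted p = 0.00244, edgeR). Of the Smox reads 80.2% were placed uniquely and 36.0% lay in introns, and both calls held under all 23 alternatives. Paox, which oxidises acetylated polyamines, was called higher in HSD (log2 0.72 ± 0.21, adjusted p = 0.0144, edgeR), but 81.8% of its reads lay in introns and with exon reads the change was -0.16 (adjusted p = 0.449, edgeR). The 3 HSD progesterone libraries had 120.2, 117 and 219 CPM of Paox, and without replicate 3 its change was 0.36 (adjusted p = 0.0352, edgeR). The HSD call was lost without HSD oil replicate 2 (adjusted p = 0.0533, edgeR). The lower Paox level in BN under progesterone, a log2 difference of -1.26 ± 0.21 (adjusted p = 0.00377, edgeR), likewise was -0.17 with exon reads (adjusted p = 0.595, edgeR). Slc22a2 and Slc22a3, organic cation transporters, fell in HSD (log2 -0.84 ± 0.28 and -1.004 ± 0.36) and were at -0.72 and -0.36 in BN without a call. Their levels were low, with HSD means from 1.41 to 0.770 CPM for Slc22a2 and from 5.02 to 2.51 CPM for Slc22a3. Of the 23 alternatives, 6 lost the HSD call of Slc22a2 and 13 that of Slc22a3. The HSD calls were lost without HSD oil replicate 1 or 2 or HSD progesterone replicate 1 or 3; that of Slc22a3 was also lost without BN oil replicate 2 or any BN progesterone library. Aldh1a3, an aldehyde dehydrogenase, fell in both strains, with log2 changes of -1.31 ± 0.34 in HSD and -1.40 ± 0.32 in BN, and without HSD progesterone replicate 2 the HSD change was -2.07 (adjusted p = 3.39e-05, edgeR). With limma on log2(RPKM + 0.1) the BN change of Aldh1a3 was -1.09 and did not pass (adjusted p = 0.0841). This was the 1 alternative of 23 that lost the BN call. On log2(RPKM + 1) the BN change was -0.87 and was still called. Maob, a monoamine oxidase, rose in HSD (log2 0.48 ± 0.11, adjusted p = 0.00558, edgeR) and was higher in BN under oil (log2 0.57 ± 0.11, adjusted p = 0.0115, edgeR), the latter lost without HSD oil replicate 3 or BN oil replicate 2 or 3 (adjusted p from 0.0572 to 0.0628, edgeR).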

How the data were processed

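RNA sequencing data of 12 uterine libraries, 1 table per library, were used. The authors deposited counts of total gene reads (exons and introns), unique, exon and intron reads, and RPKM, per the file headers. Recomputed from the tables, deposited RPKM is exon reads per exon length and library depth, except for 561 genes with 0 annotated transcripts, the Srm rows included, where it uses total gene reads. Reads were placed on Rnor_5.0, per the submitters' processing notes; aligner, counting tool and strand setting: not given in the sources used here.

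Tests of the counts used edgeR 4.0.16 under R 4.3.3 (default filterByExpr, TMM, robust quasi-likelihood, 4 group means, 8 residual degrees of freedom, common biological coefficient of variation 0.157), with Benjamini-Hochberg adjustment over 15697 genes and calls at 0.05. The script was checked on simulated data. Standard errors are the change divided by the square root of F, and intervals are approximate. Poisson intervals cover counting error only. DESeq2 1.42.0, limma 3.58.1 (voom with quality weights, or RPKM with a pseudocount of 0.1 or 1), other scalings, exon or unique reads and leaving out each library were alternatives; the Srm sum was added after seeing the data. Groups come from the labels, which number the animals. No replicate pair agreed within sampling noise (chi-square per degree of freedom from 4.52 to 78.3). Members, lists and tests were chosen with earlier results of these data known. Of the wider list the rule names at most 12 called genes, ordered by largest change. Mat2b and Asl are named outside this rule, after their values were seen. For Odc1, Sat1, Arg1 and Aoc1 the 5 genes with the highest correlation are named. Some genes that these rules name are not reported here.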

Additional observations from a re-analysis of the deposited data

How the results depend on the processing

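No paired analysis was possible because neither the animal numbers nor the replicate numbers join libraries across groups. The counts of the 9 genes called moved by over 1.5 times, or from or to 0, as follows. For progesterone against oil in BN limma voom called 7 of the 9 and 6739 genes (main: 4 and 4045). For BN against HSD under oil (main: 1 and 893) the 9 gave 0 calls without the filter and with RPKM + 0.1, and 3 with limma voom and in the 2 groups alone; genes called were 538 with exon reads, 1964 with limma voom, 489 with RPKM + 0.1 and 554 with RPKM + 1. Under progesterone (main: 2 and 900) the 9 gave 1 call with library size alone, without the filter, with either RPKM fit and in the 2 groups alone; genes called were 566 with exon reads, 1519 with DESeq2, 1688 with limma voom, 515 with RPKM + 0.1, 478 with RPKM + 1 and 409 in the 2 groups alone. For the strain difference of the change (main: 0 and 8) genes called were 119 with DESeq2, 26 with limma voom and 14 with RPKM + 1. Leaving out 1 library at a time gave 4774 to 6583 genes and 4 to 6 of the 9 in HSD, 2606 (without BN oil replicate 3) to 5055 and 3 to 6 in BN, 436 to 1327 and 0 to 3 between strains under oil, 341 to 1515 and 0 to 2 under progesterone, and 2 to 17 and 0 to 0 for the strain difference of the change. Paox in HSD reversed with exon reads (-0.16), RPKM + 0.1 (-0.28) and RPKM + 1 (-0.26); exon reads leave out its introns. The causes of the other moves were not tested. With library size alone the median of all genes in HSD was -0.14, against -0.02 with TMM. Precision is limited by 3 animals per group, for Aoc1 by a spread among HSD animals beyond counting error, and for Arg1 by 24 to 74 reads per library.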
